A study of Mus musculus with 74 samples.

Results

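Keratins are the intermediate filament proteins of epithelial cells, and 10 of them that mark the luminal or the basal layer of the mammary gland were followed here from primary mammary tumor (PT) to lung metastasis (Lung met). The members were taken by gene symbol: Krt8, Krt18, Krt7 and Krt19 on the luminal side, Krt5, Krt14, Krt15 and Krt17 on the basal side, and Krt6a and Krt79, which were assigned to neither side. Of the 10, a value was found for 7 of 18208 genes in Her2, 7 of 19320 in C3Tag, 10 of 17270 in BALB and 9 of 17351 in SEAGN. A table deposited under the AKR name held 6 of 17829 genes, and which PyMT-F1 cross it describes was not settled, so it is given last throughout and carries no statement on AKR mice. Krt5, Krt15 and Krt6a were not analysed in Her2 and C3Tag, nor Krt6a in SEAGN and the AKR-named table, where Krt15, Krt19 and Krt79 were listed without a value.

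Bulk RNA-seq was performed on 74 paired PT and Lung met samples of female transgenic mice that form mammary tumors without transplantation. All models carried an oncogene: in FVB mice Her2 (neu) or Myc under the mouse mammary tumor virus (MMTV) promoter, or the SV40 large T antigen under the C3(1) promoter (C3Tag), and in the PyMT-F1 mice the polyoma middle T antigen under MMTV on a background made by crossing FVB males to BALB, SEAGN or AKR females. By sample title each tissue was represented by 6 samples in the FVB Her2, FVB Myc, BALB PyMT-F1, SEAGN PyMT-F1 and AKR PyMT-F1 groups and by 7 in FVB C3Tag; the genotype field of several PyMT-F1 samples names a different cross from the title. PTs of Her2, C3Tag and Myc animals with single lesions were resected and the animals aged on, whereas PyMT animals were taken at the humane endpoint. All PTs of an animal were combined, and metastases were taken whole, so lung tissue can be part of a Lung met sample. Myc was not analysed here, because its table was limited to the authors' p-values and false discovery rates. The ages of the animals were not given in the labels.

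Every value below is the authors' mean of normalized counts over the samples of a group. No single-sample value was analysed, so no standard deviation, test or overlap of groups could be given, and no difference could be set against the spread between animals; the depth of each sample is unknown. A log2 ratio is the log2 of the Lung met mean over the PT mean, and counts of higher and lower genes take in only those whose means differed at least 2-fold. Tables were normalized separately, so a keratin was compared between models by its PT percentile, the percentage of genes in the same table with a lower PT mean. In bulk tissue, fewer cells of a type and less RNA per cell cannot be told apart.

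Keratins form filaments as obligate pairs of a type I and a type II chain. In the mammary gland the luminal cells that line the ducts and alveoli use the pair Krt8 (type II) and Krt18 (type I), with Krt7 and Krt19, whereas the basal, myoepithelial cells use the pair Krt5 (type II) and Krt14 (type I), often with Krt17 and, in some basal cells, Krt15. Pathologists use the same proteins to separate luminal from basal-like breast cancers.

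All 10 genes are protein coding and lie in the 2 keratin clusters of the mouse genome (GENCODE M21 on GRCm38). The type I genes on the minus strand of chromosome 11 are Krt15 (chr11:100131758-100135928), Krt19 (chr11:100140810-100148665), Krt14 (chr11:100203162-100207548) and Krt17 (chr11:100256217-100261029). On chromosome 15 are the type II genes Krt7 (chr15:101411043-101430313, plus strand), Krt6a (chr15:101689910-101694307, minus), Krt5 (chr15:101707070-101712898, minus), Krt79 (chr15:101929332-101940324, minus) and Krt8 (chr15:101996698-102004482, minus), with the type I gene Krt18 (chr15:102028180-102032027, plus) next to Krt8. Near-identical copies make some values uncertain: among all windows of 50 bases in the longest coding transcript, 49.5% in Krt6a were also found in other genes, mainly Krt6b, 26.9% in Krt8, all in the pseudogene Krt8-ps, and 14.4% in Krt14, mainly Krt16. The share was 8.52% in Krt5 and 3.99% in Krt17, below 1% in Krt18 (0.720%) and Krt15 (0.666%), and 0% in Krt7, Krt19 and Krt79.

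Krt8 and Krt18, the pair present in every simple epithelium, had the highest PT means of the keratins in all 5 tables, as deposited and per kilobase of transcript, and their Lung met means lay within 2-fold of PT in every table. In Her2, the Krt8 mean was 15220 in PT and 14989 in Lung met, and the Krt18 mean was 25016 and 23513, log2 ratios of -0.02 and -0.09. In C3Tag, Krt8 was 7626 in PT and 11905 in Lung met (log2 ratio 0.64), and Krt18 was 11399 and 13332 (0.23). The BALB means were 3088 and 3046 for Krt8 (-0.02) and 4031 and 3255 for Krt18 (-0.31), the lowest Krt18 ratio of the 5 tables. SEAGN had 2141 and 2481 for Krt8 (0.21) and 2779 and 3297 for Krt18 (0.25). The AKR-named table gave 23619 and 25929 for Krt8 (0.13) and 27630 and 29027 for Krt18 (0.07).

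Their PT percentiles lay between 97.8 and 99.4 for Krt8 and between 98.6 and 99.5 for Krt18. The signs of the Krt8 ratios in Her2 and BALB turned when the ratios were centred on 6 epithelial genes (to 0.049 and 0.0029), so no direction is read from them. On the scale of mean per kilobase of transcript, Krt8 was at 0.447 to 0.627 of the Krt18 level in PT and at 0.468 to 0.687 in Lung met, with the widest step between tissues in C3Tag (0.491 in PT and 0.655 in Lung met).

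**Figure D1:**
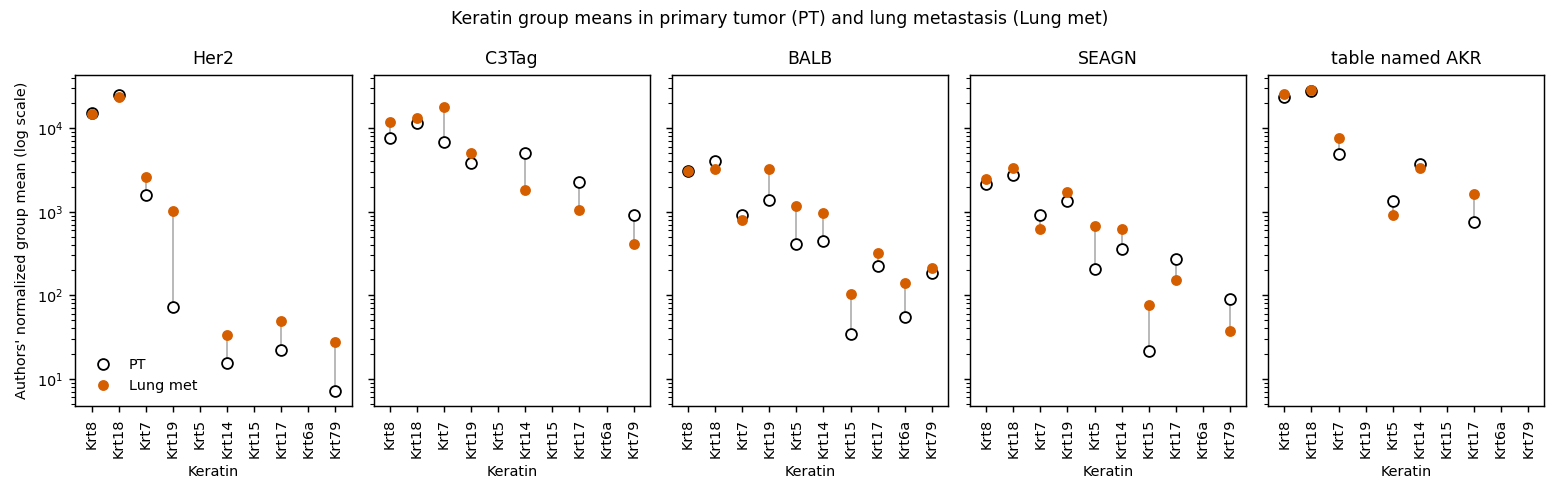
The authors' normalized group means on a log axis for each keratin (horizontal axis) in PT (open circles) and Lung met (filled circles), with a panel for each table and gaps where a keratin had no value. Krt8 and Krt18 are near the top of every panel with both circles less than 2-fold apart, and Her2 is the panel in which Krt19, Krt14, Krt17 and Krt79 start below 100 in PT.

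Krt7 and Krt19, the other keratins of ductal luminal cells, separated the models more. Krt7, the type II partner found in ducts and glands, was 6893 in C3Tag PT and 18004 in Lung met (2.61-fold higher). The Krt7 mean was 1602 in PT and 2578 in Lung met in Her2 (log2 ratio 0.69) and 4963 and 7537 in the AKR-named table (0.60). It was lower in Lung met in both named PyMT-F1 crosses, at 910 and 790 in BALB (-0.20) and 921 and 627 in SEAGN (-0.55), without reaching 2-fold. Its PT percentile ran from 78.2 in Her2 to 97.9 in C3Tag, with BALB at 89.8, SEAGN at 91.0 and the AKR-named table at 94.7.

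Krt19, the small type I keratin of ducts that lacks a tail domain, was higher in Lung met than in PT in all 4 tables with a value. The step in Her2 was the widest of any keratin in any table: the mean was 72.3 in PT and 1014 in Lung met, 14.0-fold higher, a log2 ratio above that of 99.8% of all genes in Her2. Krt19 was at a percentile of 27.1 in Her2 PT and of 67.7 in Her2 Lung met. In BALB the mean was 1370 in PT and 3215 in Lung met, 2.35-fold higher. The ratios were smaller in C3Tag (3792 and 5006, log2 ratio 0.40) and SEAGN (1357 and 1731, 0.35).

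Outside Her2, Krt19 sat at similar PT percentiles, from 93.8 in C3Tag through 94.4 in BALB to 95.0 in SEAGN. Per kilobase, Krt19 in PT was at 0.00264 of the Krt18 level in Her2, against 0.303 in C3Tag, 0.310 in BALB and 0.445 in SEAGN. In Lung met the same quantity was 0.0393 in Her2, 0.342 in C3Tag, 0.901 in BALB and 0.479 in SEAGN, so Krt19 stayed far below Krt18 in Her2 at both sites and came close to it in BALB Lung met.

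Lung markers also had higher means in Her2 Lung met, as in the other tables. Ager, a membrane receptor of alveolar type 1 cells, was 62.5 in Her2 PT and 1847 in Lung met, and Lamp3, of alveolar type 2 cells, 18.6 and 680. The fold of Lamp3 was 36.5 in Her2, 230 in C3Tag, 60.1 in BALB and 156 in SEAGN, and that of Ager 29.5, 26.9, 16.5 and 34.8. In Her2, 4 of the 5 lung epithelium genes with a value (of 13 listed) were at least 2-fold higher in Lung met, against 2.38% of all genes. The other was Aqp5, with the highest means, 57616 in PT and 52674 in Lung met. The part of lung tissue in the Krt19 value was not tested.

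**Figure D2:**
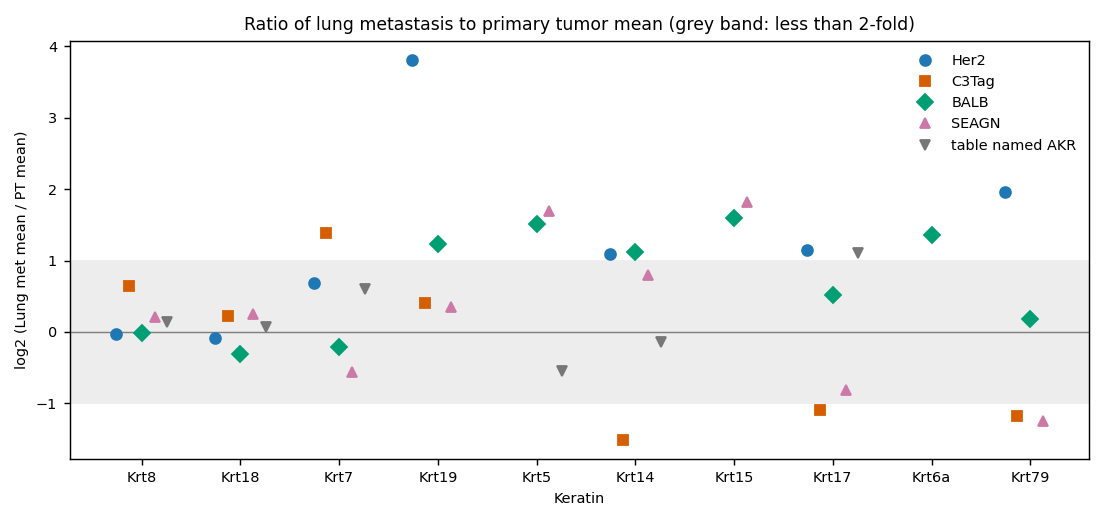
The log2 ratio of the Lung met mean to the PT mean (vertical axis) for each keratin (horizontal axis), with a marker for each table and a grey band for differences under 2-fold. All Krt8 and Krt18 points lie inside the band, Krt19 in Her2 stands at 3.81, and the Krt14 points run from -1.51 in C3Tag to 1.12 in BALB.

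The basal pair Krt5 and Krt14 had higher means in Lung met in BALB and SEAGN, past 2-fold except for Krt14 in SEAGN, and lower means in Lung met in the AKR-named table. Krt5 was 406 in PT and 1158 in Lung met in BALB (2.85-fold higher) and 209 and 674 in SEAGN (3.23-fold higher). In the AKR-named table it was 1356 in PT and 924 in Lung met, a log2 ratio of -0.55. The PT percentile of Krt5 was 75.4 in BALB, 62.0 in SEAGN and 73.6 in the AKR-named table.

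Krt14, the type I partner of Krt5, had a value in all 5 tables and was 2-fold higher in 2 of them and 2-fold lower in 1. C3Tag was the exception: the mean was 5105 in PT and 1798 in Lung met, 2.84-fold lower, and only 0.771% of all C3Tag genes had a lower ratio. In BALB it was 446 and 972 (2.18-fold higher), in SEAGN 354 and 615 (log2 ratio 0.80), and the AKR-named means were 3706 and 3368 (-0.14). Her2 had a 2.12-fold higher Lung met mean, but between low levels, 15.6 in PT and 33.0 in Lung met.

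The models were ordered widely by Krt14 in PT. Its percentile was 11.0 in Her2, 74.1 in SEAGN, 77.4 in BALB, 92.2 in the AKR-named table and 96.4 in C3Tag. None of these steps could be set against a spread over animals. The order was the same among the symbols shared by every table, where the percentile of Krt14 was 2.02 in Her2, 66.4 in SEAGN, 70.9 in BALB, 90.8 in the AKR-named table and 95.3 in C3Tag; the other low Her2 percentiles were lower there too, at 11.7 for Krt19, 3.70 for Krt17 and 0.260 for Krt79. In Lung met the percentile of Krt14 in C3Tag was 82.4, below the 90.1 of BALB and the 84.7 of SEAGN, so that the order of these 3 models was not the same at both sites.

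Per kilobase, the ratio of Krt5 to Krt14 was 0.703 in PT and 0.921 in Lung met of BALB and 0.457 and 0.847 in SEAGN, so both chains of the pair were nearer to equal levels in Lung met. The AKR-named table had 0.283 in PT and 0.212 in Lung met.

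Krt15, a type I keratin of basal cells in stratified epithelia and of hair follicle stem cells, had a value only in BALB and SEAGN. It was 34.7 in PT and 104 in Lung met in BALB (3.01-fold higher) and 21.7 and 76.7 in SEAGN (3.54-fold higher), the widest step of any keratin in both tables, from PT percentiles of 27.4 and 21.6. Krt17, a type I keratin of skin appendages that epithelia switch on after injury, was lower in Lung met in 2 tables and higher in 3. It was 2.14-fold lower in Lung met in C3Tag (2271 in PT and 1064 in Lung met) and 1.76-fold lower in SEAGN (268 and 153). BALB had a log2 ratio of 0.52 (222 and 317). It was 2.22-fold higher in Her2 (22.2 and 49.2) and 2.14-fold higher in the AKR-named table (754 and 1616).

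In SEAGN, Krt17 therefore lay on the other side of PT from Krt5, Krt14 and Krt15, and its level per kilobase relative to Krt14 was 0.831 in PT and 0.272 in Lung met. In the AKR-named table the opposite held, with Krt17 at 0.223 of the Krt14 level in PT and 0.525 in Lung met. The PT percentile of Krt17 was 14.9 in Her2, 59.5 in the AKR-named table, 61.7 in BALB, 67.8 in SEAGN and 87.4 in C3Tag.

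Krt6a, a stress-inducible type II keratin also found in mammary progenitor cells, was measured in BALB alone, where it was 54.8 in PT and 141 in Lung met (2.57-fold higher). Krt79, a type II keratin of the hair follicle canal and sebaceous duct, went different ways in different models. It was 2.26-fold lower in Lung met in C3Tag (922 in PT and 408 in Lung met) and 2.37-fold lower in SEAGN (89.5 and 37.7). In BALB the means were 187 and 212 (log2 ratio 0.18). Her2 had a 3.88-fold higher Lung met mean between low levels, 7.17 in PT (a percentile of 4.00) and 27.9 in Lung met. After centring on the 6 epithelial genes, the C3Tag log2 ratios of Krt17 (-0.88) and Krt79 (-0.97) no longer reached 2-fold.

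**Figure D3:**
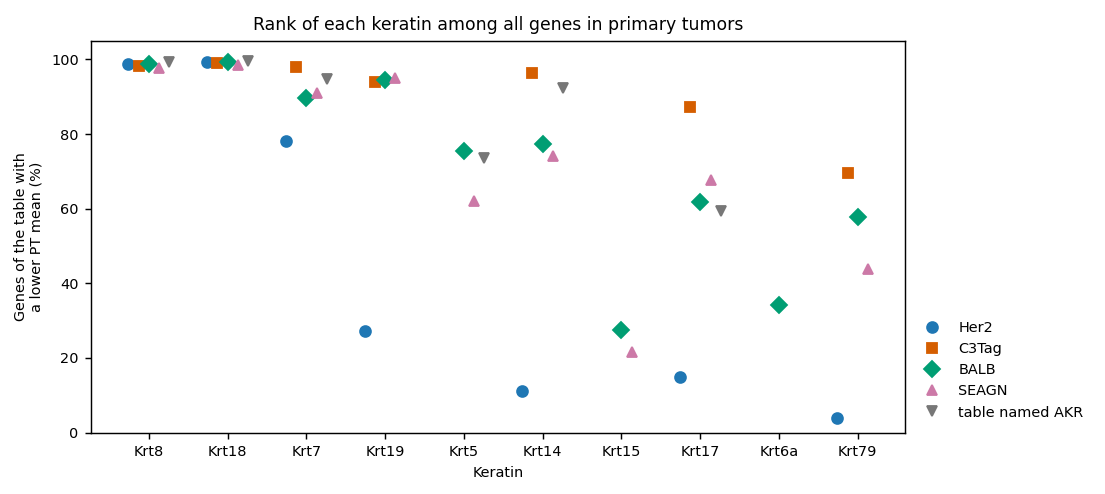
The PT percentile of each keratin, the percentage of genes of the same table with a lower PT mean (vertical axis, 0 to 100), by keratin (horizontal axis), with a marker for each table. Krt8 and Krt18 lie above 97 in every table, and Krt19, Krt14, Krt17 and Krt79 lie below 30 in Her2 while C3Tag has the highest percentile for Krt7, Krt14, Krt17 and Krt79.

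Counted over the members, 4 of the 7 keratins in Her2 were at least 2-fold higher in Lung met and 0 lower, where 2.38% of all Her2 genes were higher and 1.43% lower. In C3Tag 1 of 7 was higher and 3 were lower, against 7.42% and 1.70% of all genes. BALB had 5 of 10 higher and 0 lower, against 2.26% and 2.40%. SEAGN had 2 of 9 higher and 1 lower, against 2.86% and 3.22%. The AKR-named table had 1 of 6 higher and 0 lower, against 7.31% and 1.73%. The median log2 ratio over the keratins with a value was 1.09 in Her2, 0.23 in C3Tag, 0.82 in BALB, 0.25 in SEAGN and 0.10 in the AKR-named table, while the median over all genes of a table lay between -0.0013 and 0.03. The Her2 median was the ratio of Krt14, between low means of 15.6 and 33.0. Krt8 and Krt18, with the highest means, were at -0.02 and -0.09 in Her2.

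The higher and lower keratins were not the same type in each model. In Her2 the higher keratins were Krt19, Krt14, Krt17 and Krt79, all of them at PT percentiles of at most 27.1. In BALB the higher keratins were Krt19 with the basal Krt5, Krt14 and Krt15, and Krt6a. In SEAGN, Krt5 and Krt15 were higher and Krt79 lower. C3Tag was the single table with basal keratins at least 2-fold lower (Krt14 and Krt17, with Krt79), and there the luminal Krt7 was higher.

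Basal keratins as a share of the summed luminal and basal keratin means per kilobase put these values together. In C3Tag the share was 21.9% in PT and 7.07% in Lung met, with Krt14 and Krt17 as the measured basal keratins. Her2, with the same 2 basal keratins, had 0.0915% in PT and 0.202% in Lung met. The share was 10.0% and 18.4% in BALB and 10.6% and 14.4% in SEAGN, with all 4 basal keratins measured. In the AKR-named table it was 9.18% and 8.90%, without Krt15 and Krt19. Shares from different sets of keratins are set side by side only, but C3Tag and Her2 used the same set. With only the 5 keratins measured in every table, the AKR-named share was 7.59% in PT and 7.90% in Lung met, the other direction, and the SEAGN share was 10.5% and 11.0%, while BALB had 8.10% and 16.2%, C3Tag 24.9% and 8.12% and Her2 0.0916% and 0.207%.

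Krt8 and Krt18 together made up 98.2% of this sum in Her2 PT, 87.4% in the AKR-named PT, 72.0% in BALB PT, 65.8% in SEAGN PT and 58.0% in C3Tag PT. In Lung met the same pair made up 94.8% in Her2, 86.3% in the AKR-named table, 51.5% in BALB, 63.3% in SEAGN and 62.2% in C3Tag. The level of Krt8 per kilobase was 848 times that of Krt14 in Her2 PT and 394 times in Her2 Lung met, whereas in C3Tag it was 1.30 times in PT and 5.74 times in Lung met. In PT and Lung met it was 6.00 and 2.72 times in BALB, 5.25 and 3.50 in SEAGN and 5.53 and 6.68 in the AKR-named table.

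**Figure D4:**
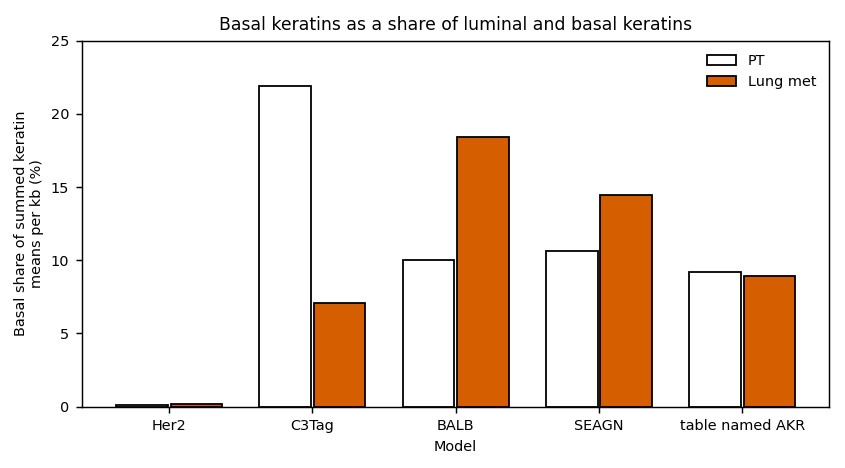
Basal keratins as a percentage of the summed luminal and basal keratin means per kilobase (vertical axis from 0) in PT (white bars) and Lung met (filled bars) for each table; bars are single values with no replicate error. The C3Tag bar goes from 21.9% in PT to 7.07% in Lung met, the BALB bar from 10.0% to 18.4%, and both Her2 bars lie at the axis.

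Keratin filaments are anchored to desmosomes and hemidesmosomes, and 19 genes for the linkers, junction proteins and integrins of these sites, with vimentin, were read beside the keratins. Of those with a value, 0 of 17 in Her2 and 0 of 15 in BALB differed at least 2-fold. Of all genes, 2.38% were higher and 1.43% lower in Her2, and 2.26% and 2.40% in BALB. In C3Tag 2 of 17 were higher and 1 lower, against 7.42% and 1.70% of all genes. In SEAGN 1 of 17 was higher (2.86% of all genes), and 2 of 17 in the AKR-named table (7.31%). Counts this small do not set the list apart from all genes. The medians of the list lay between -0.21 and 0.21 on the log2 scale.

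Of the 4 members of this list with the highest average mean, Dst, a plakin linking filaments to hemidesmosomes, was 3055 in C3Tag PT and 8517 in Lung met (2.79-fold higher) and had log2 ratios of -0.29 to 0.15 in the other tables. Plec, the plectin crosslinker, had log2 ratios of -0.04 to 0.92, Itga6, the laminin-binding integrin subunit of hemidesmosomes, -0.24 to 0.46, and Jup, plakoglobin of the desmosome, -0.26 to 0.35. Col17a1, the hemidesmosomal collagen of basal cells, and Vim, the mesenchymal intermediate filament vimentin, were named after their values were seen. Col17a1 was 380 in C3Tag PT and 58.7 in Lung met (log2 ratio -2.70), and 96.9 and 197 in SEAGN (1.03), 139 and 254 in BALB (0.87). Vim was 5359 in PT and 14538 in Lung met in C3Tag (1.44) and 3966 and 12032 in the AKR-named table (1.60), with log2 ratios of -0.71 in Her2, 0.06 in BALB and -0.33 in SEAGN.

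Other basal and myoepithelial genes did not share the direction of the basal keratins in every model. Of 10 listed, 1 of 10 with a value was at least 2-fold higher in Her2, against 2.38% of all genes. In C3Tag 2 of 9 were higher (7.42% of all genes), and 1 of 9 in BALB (2.26%). SEAGN had 2 of 7 higher and 1 lower, against 2.86% and 3.22% of all genes. The AKR-named table had 1 of 6 higher and 1 lower, against 7.31% and 1.73%. Counts this small do not set the list apart from all genes. Sparcl1, a secreted matrix protein, was 3.64-fold higher in C3Tag Lung met (1431 and 5212), in the model whose Krt14 and Krt17 were lower. Mylk, the myosin light chain kinase of contractile cells, was 3.99-fold higher there (701 and 2797). Its log2 ratios ran from 0.22 to 2.00 over all 5 tables. In C3Tag the summed Lung met mean of 4 endothelial genes was 2.96 times that in PT, and that of 4 fibroblast genes 0.844 times. The part of non-epithelial cells in the Sparcl1 and Mylk values was not tested. Lgr6, a Wnt pathway receptor of epithelial stem cells, was 2.63-fold lower in SEAGN (1587 and 603), and Tagln, an actin-binding protein of smooth muscle, had log2 ratios of 0.01 to 0.98. Of the 9 genes with a value in C3Tag, 7 had a higher Lung met mean. The 2 lower ones were Lgr6 (log2 ratio -0.41) and Trp63 (-0.81).

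In BALB, where Krt5, Krt14 and Krt15 were higher, 5 of the 9 genes of this list had a higher and 4 a lower Lung met mean. Cdh3, P-cadherin, was 87.0 and 179 (log2 ratio 1.04), and Sparcl1 (0.21), Mylk (0.22), Tagln (0.03) and Oxtr, the oxytocin receptor (0.09), were within 2-fold. Of the lower ones, Lgr6 had a log2 ratio of -0.06, and the contractile genes Acta2 (484 and 429, -0.18), Cnn1 (53.8 and 32.6, -0.72) and Myh11 (225 and 144, -0.64) were also within 2-fold. Trp63, the transcription factor p63 of basal epithelia, was 244 in PT and 530 in Lung met in SEAGN (1.12) and 115 and 255 in Her2 (1.16), and 273 and 156 in C3Tag (-0.81) and 760 and 401 in the AKR-named table (-0.92). In each of these tables its ratio had the same sign as that of Krt14. Trp63, Acta2, Cnn1, Myh11, Cdh3 and Oxtr were chosen after their values were seen, and Trp63 was not analysed in BALB.

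Luminal genes outside the keratin family were counted in the same way, beside the share of all genes. Of 15 listed, 1 of 13 was higher in Her2 (2.38% of all genes), and 1 of 15 lower in BALB (2.40%). In C3Tag 2 of 15 were higher and 2 lower, against 7.42% and 1.70% of all genes. In SEAGN 0 of 15 differed 2-fold, where 2.86% of all genes were higher and 3.22% lower. The AKR-named table also had 0 of 15, where 7.31% of all genes were higher and 1.73% lower. The 4 with the highest average mean were Epcam, an adhesion protein of epithelial cells (log2 ratios -0.68 to 0.05), Cdh1, E-cadherin (-0.19 to 0.11), Kit, a receptor kinase of luminal progenitors (-0.23 to 0.51), and Elf5, a transcription factor of alveolar cells (-0.61 to 0.53). Muc1, a luminal surface mucin named after its value was seen, was 408 in C3Tag PT and 2979 in Lung met (2.87) and 369 and 924 in Her2 (1.32), with log2 ratios of 0.63 in BALB, 0.70 in SEAGN and 0.37 in the AKR-named table. The other luminal genes past 2-fold, named for the same reason, were the transcription factor Foxa1 in C3Tag (1.22) on the higher side and, on the lower side, the hormone receptors Pgr (-3.03) and Esr1 (-1.20) in C3Tag and Pgr in BALB (-1.15). The Pgr ratios were between low levels, 54.8 in PT and 6.73 in Lung met in C3Tag and 15.3 and 6.88 in BALB. The 6 epithelial genes used for centring had medians between -0.21 (C3Tag) and -0.01 (SEAGN), and 0 of 6 differed 2-fold in any table.

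Of 9 further keratins with a value in some table, Krt23, Krt80, Krt10 and Krt87 reached a mean of 100. Krt23, a type I keratin of glandular epithelia, was 239 in C3Tag PT and 622 in Lung met (1.38) and 821 and 1557 in the AKR-named table (0.92), and lower in Lung met in Her2 (-0.56), BALB (-0.46) and SEAGN (-0.89). Krt80, a type II keratin, was higher in Lung met in all 5 tables, from a log2 ratio of 0.36 in Her2 to 1.72 in the AKR-named table. Krt10, the type I keratin of differentiating epidermis, was 313 in C3Tag PT and 79.0 in Lung met (-1.99) and 25.6 and 12.3 in SEAGN (-1.05), the same models in which Krt79 was lower. Krt87, a keratin of the hair type, was 39.7 in PT and 102 in Lung met in C3Tag (1.36).

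Skin, lung and stromal markers were read beside the keratins. Of the 11 skin genes, 5 had a value in C3Tag and all 5 were lower in Lung met, 2 of them at least 2-fold (Krt10, and Sbsn at 505 and 215), with the summed mean at 5292 in PT and 4138 in Lung met. In SEAGN all 4 with a value were lower, 2 of them 2-fold, with sums of 595 and 388. In Her2 4 of 5 were higher, 1 of them 2-fold (sums 722 and 789). In BALB 0 of 2 differed 2-fold, with 1 higher and 1 lower (323 and 389). The AKR-named table had 0 of 5 past 2-fold, but 4 of 5 were lower, with sums of 4840 and 2738. Of all genes, 1.70% were 2-fold lower in C3Tag and 3.22% in SEAGN, and 2.38% were 2-fold higher in Her2. The shares higher and lower were 2.26% and 2.40% in BALB and 7.31% and 1.73% in the AKR-named table. Krt1, Krt2, Lor and Flg, which define differentiated epidermis, were not analysed in any table. The part of skin in the Krt14, Krt17 and Krt79 values was not tested.

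Of the lung epithelium genes, Ager, Lamp3, Hopx and Rtkn2 were at least 2-fold higher in all 5, with folds of 16.5 to 44.5 for Ager, 24.6 to 230 for Lamp3, 4.17 to 16.8 for Hopx and 5.84 to 26.2 for Rtkn2. In C3Tag, 5 of the 6 lung genes with a value were 2-fold higher, and 4 of 6 in BALB, SEAGN and the AKR-named table. The share of all genes 2-fold higher was 7.42% in C3Tag, 2.26% in BALB, 2.86% in SEAGN and 7.31% in the AKR-named table. The summed mean of the list in PT and Lung met was 57802 and 55918 in Her2, 2410 and 17362 in C3Tag, 3523 and 2815 in BALB, 2267 and 5021 in SEAGN and 13971 and 29473 in the AKR-named table. Aqp5, a water channel of the list that was high in PT as well, made up most of the Her2 and BALB sums. Its means in PT and Lung met were 57616 and 52674 in Her2 (log2 ratio -0.13) and 3463 and 2191 in BALB (-0.66). Foxj1, of ciliated cells, was lower in SEAGN (-0.42). Surfactant and club cell genes of the list were not analysed here. Airway and alveolar epithelium also contain keratins of the luminal set, and airway basal cells contain Krt5, Krt14 and Krt15, and how much of the Lung met keratin means came from lung tissue was not tested.

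Lum, a matrix proteoglycan of fibroblasts, was lower in Lung met in all 5 tables (3.10-fold to 41.8-fold), and Vwf, made by endothelium, was higher in all 5 (3.08-fold to 9.36-fold). Of the other fibroblast genes, the collagen gene Col1a1 was lower in all 5 (log2 ratios -2.81 to -0.62), Dcn was lower in 4 (-2.42 to -0.76) and higher in C3Tag (0.75), and the receptor gene Pdgfra was higher in all 5 (0.44 to 0.94). For the 4 fibroblast genes the summed mean in Lung met was between 0.189 and 0.844 of that in PT, and for the 4 endothelial genes between 1.62 and 3.49. Leukocyte genes were between 1.15 and 2.11 on the same scale. The part of these cells in the keratin values was not tested.

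**Figure D5:**
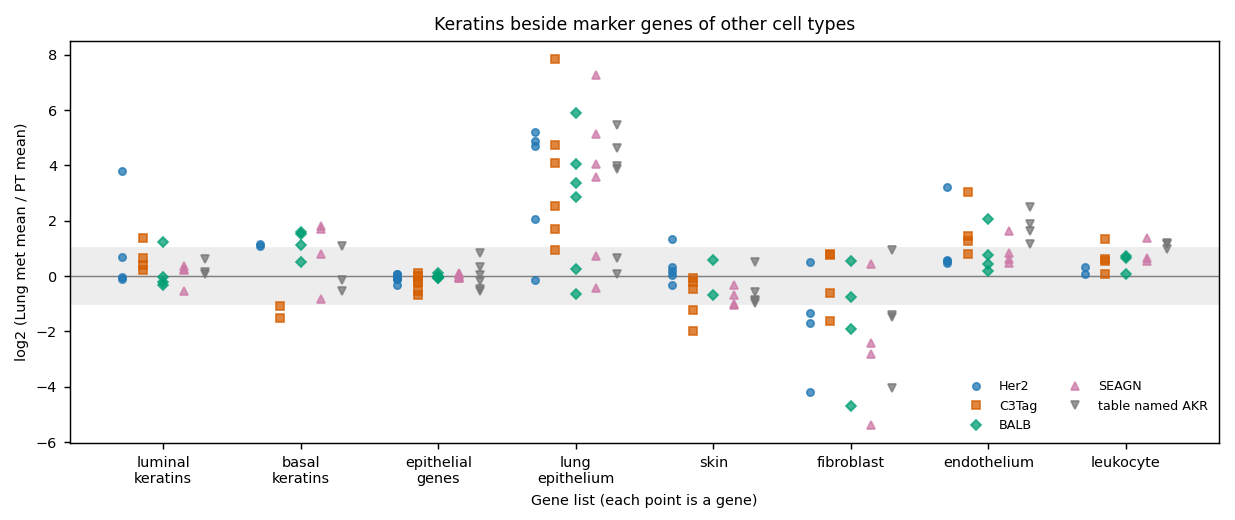
The log2 ratio of the Lung met mean to the PT mean (vertical axis) for each gene of 8 lists (horizontal axis), with a marker for each table and a grey band for differences under 2-fold; every point is a gene. The epithelial genes lie inside the band in all 5 tables, most lung epithelium genes lie above it, and the basal keratins lie below it only in C3Tag.

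Over the 10 group means of the 5 tables, each centred on the median gene of its table, the genes most like Krt14 among 12280 were Lgals7 (Pearson r of 0.977), Kti12 (0.975), Krt17 (0.973), Ppan (0.972) and Nap1l1 (0.971). Lgals7, galectin-7 of stratified epithelia, and Krt17 thus stood among the nearest 5, while Krt14 against Krt18 had an r of -0.43. The r also takes in level differences between tables. From PT to Lung met, Krt14, Krt17 and Lgals7 went the same way in Her2, C3Tag and BALB only. In SEAGN the log2 ratios were 0.80 for Krt14, -0.81 for Krt17 and -0.34 for Lgals7. The AKR-named table had -0.14, 1.10 and -0.86. Most like Krt18 were Trim13 (0.989), Arpc1a (0.985), Ndufb9 (0.985), Brk1 (0.984) and Nmi (0.983), and its filament partner Krt8 was 504th with 0.925. PT and Lung met of a table share their normalization and annotation, so these 10 points are not independent and the values are a description.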

How the data were processed

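The authors processed the RNA-seq reads in Partek Flow, where alignment was followed by gene counting and a normalization that is not named in the sources used here. The study's methods name mm9, and the authors' processing notes name mm39, STAR 2.7.8a and DESeq2. To compare both tissues, the authors ran Gene Specific Analysis for the FVB models and DESeq2 for the PyMT-F1 crosses. The group means used here are the authors' deposited least-squares means of normalized counts, a signal to which neither an SD nor an n was attached. The other deposited columns hold the authors' p-values, false discovery rates, ratios and fold changes and were not used, which leaves out Myc, 1 of 6 tables. Of other columns with per-sample values there were 0.

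BALB and SEAGN both carried gene identifiers of the BALB strain, whereas Her2, C3Tag and the AKR-named table carried ENSMUSG identifiers. A symbol was given for 14599 of 17270 genes in BALB and 14667 of 17351 in SEAGN, against 18200 of 18208 in Her2. PT percentiles are therefore ranks within differently built gene sets. For the genes looked up, the AKR-named entries match those the study's supplement lists for another cross, so the strain was not settled. Groups were taken from sample titles, of which 74 were mapped.

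Ratios, 2-fold counts, percentiles and shares were computed with Python 3.11.15, numpy 2.4.6 and pandas 2.3.3 and drawn with matplotlib 3.10.9. The code for ratios, 2-fold counts and percentiles, but not for shares, was run on simulated means with known changes and no noise. That run checks the arithmetic only. Means per kilobase used the longest protein-coding transcript in GENCODE M21 (GRCm38), matched by symbol for BALB and SEAGN. Members and lists were chosen with earlier results of these data known. Named besides the 10 members were genes past 2-fold the same way in every table, up to 4 more per list with the highest average mean, further keratins with a mean of at least 100 and the 5 genes most like Krt14 and Krt18 among symbols with an average mean of at least 10. Alternatives were a pseudocount of 1, centring, a fold of 1.5, a mean of at least 10, other rank sets and other shares.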

Additional observations from a re-analysis of the deposited data

How the results depend on the processing

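The deposited means are pooled, so neither the spread between animals nor the weight of a single animal could be examined, and depth is unknown. No paired analysis was possible because no value of a single sample was analysed, and leaving out replicates could not be run for the same reason. The log2 ratios of the keratins kept their sign and their side of 2-fold in 113 of 117 recomputations. Centring on the 6 epithelial genes turned Krt8 in Her2 (0.0489) and in BALB (0.00291), and took Krt17 (-0.88) and Krt79 (-0.97) in C3Tag below 2-fold. A threshold of 1.5-fold gave 2 higher keratins in C3Tag and 2 in the AKR-named table, and 2 lower keratins in SEAGN, where 2-fold gave 1 each. At 1.5-fold, 2704 of all 19320 genes were higher in C3Tag and 2417 of 17829 in the AKR-named table. In SEAGN 1443 of 17351 were lower. Basal shares stayed within 1.5 times in 40 of 42 recomputations, including 2 alternatives chosen after seeing the data (union of exons as length, and only the keratins measured in every table). The exceptions were Her2 with Krt5 and Krt14 set against Krt8 and Krt18, at 0.0364% in PT and 0.0809% in Lung met, where Krt14 was the only basal gene measured. With only the keratins measured in every table, the difference of the AKR-named shares turned (7.59% in PT and 7.90% in Lung met) and that in SEAGN nearly closed (10.5% and 11.0%). PT percentiles moved in 36 of 116 recomputations, in none of them for Krt8 or Krt18; among shared symbols the Her2 percentiles were 2.02 for Krt14, 3.70 for Krt17 and 11.7 for Krt19.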
